A study of Mus musculus with 19 samples.

Results

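Platelets are small anucleate cells shed by megakaryocytes, and they carry messenger RNA from those parent cells. The genes described here are 8 of the 25239 gene symbols in a count table of mouse heart RNA: Gp9, Gp1bb, Gp6, Itga2b, Treml1, Tubb1, Ppbp and Pf4. They were taken by name as genes typical of platelets and megakaryocytes, with earlier results of these hearts known. All 8 were found, and 7 had enough reads to be tested among the 14301 genes that passed a filter on low counts. Gp6 did not pass it, and its counts are given without that test.

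The libraries came from 4 groups of mouse hearts. Wild-type mice received PBS (Wt PBS, n = 5) or LCWE (Wt LCWE, n = 6), and mice with a knockout of Mcm8, a helicase gene of DNA repair, received PBS (Ko PBS, n = 3) or LCWE (Ko LCWE, n = 5). LCWE is a cell wall extract of Lactobacillus casei that is used in mice as a model of the vasculitis of Kawasaki disease, and PBS is the buffer control. Mouse age, sex and strain, the dose and the time after injection are not given in the labels. Nor is it stated that libraries are separate animals, so p-values measure the spread between these libraries, which may be technical.

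Total counts ran from 11853233 to 16145911 per library, at which 3 counts correspond to 0.186 to 0.255 CPM (counts scaled to the effective size of the library). This number of counts was taken as the floor of what a library can show. Reads carry no molecular identifiers, so that floor covers counting error only. The knockout label held in every library: Mcm8 lay between 2.60 and 5.19 CPM in the wild-type libraries and between 0.130 and 0.910 CPM in the knockout ones. Heart muscle markers summed to 69657 to 105548 CPM. The hemoglobin genes Hbb-bs, Hbb-bt, Hba-a1 and Hba-a2 were at 0 in all 19 libraries, and 5 other erythroid genes were tested. Of those, Alas2, the first enzyme of heme synthesis in red cell precursors, differed by 1.16 ± 0.53 for LCWE in wild type and by -0.93 ± 0.62 in the knockout on the log2 scale. Its interaction was -2.09 ± 0.81, and 0 of the 5 were called in any of these by edgeR (Alas2 adjusted p = 0.772, 0.380 and 0.587). Alas2 does not stand for the list. Of the 5 genes, 4 lay above 0 with LCWE in wild type (median 0.92) and 4 in the knockout (median 0.35). Alas2 alone lay below 0 in the knockout, and the median interaction of the 5 was -0.24. Erythroid sums had medians of 96.3 CPM in Wt PBS, 162 in Wt LCWE, 73.2 in Ko PBS and 173 in Ko LCWE. Their part in the platelet gene values was not tested.

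In the blood vessel, platelets first catch on von Willebrand factor through the GPIb-IX-V complex, to which Gp9 and Gp1bb contribute subunits. Collagen then signals through glycoprotein VI, the product of Gp6, and the integrin alphaIIb of Itga2b pairs with beta3 to bind fibrinogen and join platelets together. Alpha granules release the chemokines of Ppbp and Pf4 and bring the receptor-like protein of Treml1 to the surface, while the beta tubulin of Tubb1 forms the ring of microtubules that keeps the platelet disc-shaped. In coronary vasculitis and in the heart, platelets are known for thrombosis and for contact with leukocytes.

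Transcription factors of the GATA and ETS families drive many megakaryocyte genes, and the bases before the start sites of these genes are shown for that reason. The 250 bases upstream of each RefSeq start site (build GRCm38.p6) were searched on both strands for 4 GATA spellings, namely AGATAA together with its variant spelling AGATAG and also TGATAA together with its variant spelling TGATAG. The ETS spellings were AGGAAG together with its variant spelling CGGAAG. No GATA spelling overlaps an ETS spelling in any of the 8 genes. Of 32851 mouse promoters of that length, 26.5% held a GATA spelling, 39.2% an ETS spelling and 9.21% both. Capitals mark each match in the 5 sequences that follow. They are those of the neighbouring chemokine genes Pf4 and Ppbp, which differed in pattern, of Gp9 and Tubb1, which had the largest differences with LCWE in wild type, and of Gp6, which held a GATA spelling. The sequences read 5′ to 3′ on the gene's own strand.
Pf4: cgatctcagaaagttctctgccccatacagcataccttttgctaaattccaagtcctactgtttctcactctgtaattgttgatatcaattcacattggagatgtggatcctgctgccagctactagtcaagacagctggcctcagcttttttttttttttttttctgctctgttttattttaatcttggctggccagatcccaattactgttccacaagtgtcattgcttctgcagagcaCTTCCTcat
Ppbp: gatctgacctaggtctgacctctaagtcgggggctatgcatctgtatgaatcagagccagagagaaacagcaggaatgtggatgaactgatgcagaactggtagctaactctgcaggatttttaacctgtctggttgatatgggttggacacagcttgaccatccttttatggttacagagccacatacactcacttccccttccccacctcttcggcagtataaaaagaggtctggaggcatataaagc
Gp9: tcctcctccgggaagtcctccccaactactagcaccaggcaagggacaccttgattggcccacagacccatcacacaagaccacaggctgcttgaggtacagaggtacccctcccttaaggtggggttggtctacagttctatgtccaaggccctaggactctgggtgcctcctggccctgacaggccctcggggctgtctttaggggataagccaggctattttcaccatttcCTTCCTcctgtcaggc
Tubb1: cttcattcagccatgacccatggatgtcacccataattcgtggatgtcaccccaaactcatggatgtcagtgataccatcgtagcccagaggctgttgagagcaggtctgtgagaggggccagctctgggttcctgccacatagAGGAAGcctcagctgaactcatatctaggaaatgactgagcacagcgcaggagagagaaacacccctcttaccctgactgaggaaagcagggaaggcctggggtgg
Gp6: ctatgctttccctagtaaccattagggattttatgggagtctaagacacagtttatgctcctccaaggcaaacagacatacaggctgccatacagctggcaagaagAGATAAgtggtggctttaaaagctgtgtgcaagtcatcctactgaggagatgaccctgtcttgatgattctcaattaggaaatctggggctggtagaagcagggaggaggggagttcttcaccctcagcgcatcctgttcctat

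Those runs lie at chr5:90772185-90772434 for Pf4, chr5:90768268-90768517 for Ppbp, chr6:87777820-87778069 for Gp9 and chr2:174450345-174450594 for Tubb1, all on the plus strand, and at chr7:4397745-4397994 on the minus strand for Gp6. Pf4 and Gp9 each held 1 ETS spelling on the opposite strand, 9 to 4 and 16 to 11 bases before the start. Tubb1 held 1 ETS spelling 106 to 101 bases before its start, and Gp6 held 1 GATA spelling 144 to 139 bases before its start. The Ppbp window held neither, nor did that of Treml1. The windows of Itga2b (2 ETS spellings) and Gp1bb (1 GATA and 1 ETS spelling) overlap annotated exons and are not printed. A match is a run of letters, not a measured binding site.

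In wild-type hearts, all 7 tested platelet genes lay higher after LCWE than after PBS, with log2 fold changes from 0.69 to 2.91 and a median of 1.58. For some of them the filter on low counts (minimum count 10) favours that side. Gp9 had at most 8 counts in any PBS library, so it was tested only because of LCWE libraries. Treml1 and Tubb1, with at most 4 and 8 counts in Wt PBS, passed through libraries of other groups. Over all tested genes the median was 0.0071 and 51.5% lay above 0. In bulk tissue, a change in the number of cells of a type and a change in RNA per cell cannot be told apart. With edgeR's quasi-likelihood test, 0 of the 7 passed the adjusted threshold of 0.05, as did 0% of all genes tested (adjusted p from 0.772 to 0.814). Gp9, Tubb1, Ppbp and Pf4, 4 of 7, were at an unadjusted p under 0.05 on the higher side, against 4.59% of all tested genes. DESeq2 and limma-voom also called 0 of the 7, with 4 and 2 of them at an unadjusted p under 0.05. Over all genes in either direction, 6.69% and 5.3% were at such a p with these tools. The groups overlapped for each of the 7, and 0.441% of all tested genes had LCWE libraries that all lay above the PBS ones.

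In the knockout, the same comparison gave 3 of 7 genes above 0 and a median log2 fold change of -0.23 (0.0082 over all genes). EdgeR called 0 of 7, against 2.9% of all tested genes, and adjusted p ran from 0.0778 for Pf4 to 0.979 for Ppbp. Pf4 alone was at an unadjusted p under 0.05, against 10.7% of all genes on the higher side, and Pf4 alone had LCWE libraries that all lay above the PBS ones, against 4.91%. DESeq2 called 1 of 7 and limma-voom 0, against 8.99% and 0.79% of all genes in either direction. They put 1 and 2 of the 7 at an unadjusted p under 0.05, against 24.6% and 23.4% of all genes. Averaged over the genotypes, 1 of 7 rose with LCWE, Pf4, against 1.35% of all genes called higher and 2.95% in either direction. Gp9 and Pf4 were the 2 at an unadjusted p under 0.05 in that average, against 13.2% of all genes on the higher side.

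Under PBS, 6 of 7 genes lay higher in the knockout than in wild type, with a median log2 difference of 1.27 (0.0012 over all genes). EdgeR called 0 of 7, against 0.601% of all genes, with adjusted p from 0.128 to 0.631. Itga2b, Treml1 and Tubb1 were at an unadjusted p under 0.05, against 12.3% of all genes on the higher side. DESeq2 and limma-voom called 0 as well, against 5.19% and 0.00699% of all genes in either direction. They put 5 and 4 of the 7 at an unadjusted p under 0.05, against 20.8% and 19.7% of all genes. Gp9, Treml1 and Tubb1 had knockout libraries that all lay above the wild-type ones, against 4.1% of all genes. Pf4 lay on the other side, with a log2 difference of -0.79 ± 0.43.

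Under LCWE, all 7 genes lay lower in the knockout than in wild type. Log2 differences ran from -0.83 for Ppbp to -0.11 for Itga2b, with adjusted p of 0.922 or more in edgeR. These sizes depended on single libraries. With 1 library left out, Ppbp ran from -2.28 to -0.57 (edgeR adjusted p of 0.531 or more), Gp9 from -1.60 to 0.083 and Tubb1 from -0.88 to 0.069. With all libraries, edgeR called 0 of 7, against 0.00699% of all genes, and 0 of 7 were at an unadjusted p under 0.05, against 5.55% of all genes. DESeq2 and limma-voom called 0, with 0 and 1 at an unadjusted p under 0.05 (6.15% and 5.24% of all genes). Averaged over treatments, 0 of 7 differed between genotypes, against 0.014% of all genes, and Tubb1 alone was at an unadjusted p under 0.05, against 12% on the higher side. DESeq2 and limma-voom called 0 in that average, with 1 each at an unadjusted p under 0.05 (21.6% and 20% of all genes).

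The interaction asks whether the LCWE difference in the knockout departed from that in wild type. It lay below 0 for 6 of 7 genes, with a median of -1.54 on the log2 scale (-0.02 over all genes), and above 0 for Pf4 (0.62 ± 0.55). EdgeR called 0 of 7 and 0% of all genes, with adjusted p from 0.599 to 0.787. Treml1 (-3.47 ± 1.44), Tubb1 (-2.89 ± 1.17) and Itga2b (-1.38 ± 0.63) were at an unadjusted p under 0.05, against 4.98% of all genes on the lower side. DESeq2 and limma-voom called 0, with 3 each at an unadjusted p under 0.05 (8.66% and 7.82% of all genes). A difference between the genotypes in how these genes stood after LCWE was thus not shown. The comparisons share libraries: each PBS group and each LCWE group enters several of them, so their directions are not independent of each other.

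**Figure D1:**
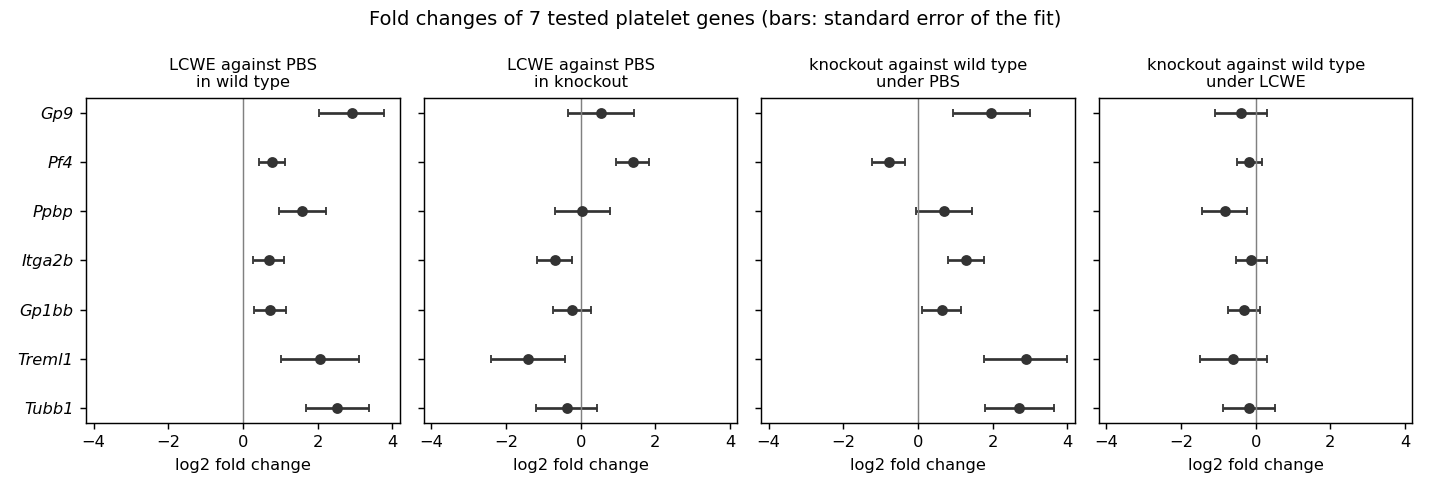
Log2 fold changes (x axis) of the 7 tested platelet genes (y axis) in 4 comparisons, with points for edgeR's estimate and bars for its standard error; Ko stands for the Mcm8 knockout. All 7 points lie right of 0 for LCWE in wild type, 6 of 7 lie right of 0 for knockout against wild type under PBS with Pf4 on the left, and all 7 lie left of 0, by at most 0.83, for knockout against wild type under LCWE.

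Gp9 (chr6:87778072-87779768, plus strand, GRCm38) encodes glycoprotein IX, the small subunit that the adhesion complex needs to reach the platelet surface. The table held 169 counts of it, with 14 of 19 libraries under 10 counts. In Wt PBS the 5 libraries had 0.250, 0.311, 0, 0.0667 and 0 CPM, which is 0 to 5 counts. In Wt LCWE the lowest library had 0.135 CPM, the median was 0.785 and the highest library had 2.55, so that 5 of 6 lay above every Wt PBS library. The log2 fold change was 2.91 ± 0.87 (edgeR adjusted p = 0.772).

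The Gp9 values of Ko PBS lay close together, at 0.560, 0.411 and 0.603 CPM, and all exceeded those of Wt PBS. Their difference from Wt PBS was 1.96 ± 1.03 on the log2 scale (edgeR adjusted p = 0.292). In Ko LCWE the 5 libraries had 0.155, 0.584, 0.375, 2.51 and 0.195 CPM. Replicate 4 stood far above the other 4, of which 3 lay below all Ko PBS libraries. LCWE against PBS in the knockout gave 0.55 ± 0.89 (adjusted p = 0.751 in edgeR), and -0.65 without that library.

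Gp1bb (chr16:18620317-18622403, minus strand) encodes the beta chain of glycoprotein Ib, which is linked to the chain that binds von Willebrand factor. It overlaps the neighbouring gene Septin5 on the same strand, and reads of one may be counted for the other, so its values are uncertain. Septin5 differed by -0.01 ± 0.22 between LCWE and PBS in wild type. Gp1bb counts were 4 to 28 per library. In Wt PBS they gave 0.334, 0.623, 0.836, 0.801 and 0.891 CPM, and in Wt LCWE a lowest value of 0.270, a median of 1.23 and a highest value of 1.87 CPM. Replicate 6 of Wt LCWE was below all Wt PBS libraries and the other 5 were above them, with a log2 fold change of 0.72 ± 0.44 (edgeR adjusted p = 0.811).

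In Ko PBS, Gp1bb had 1.96, 0.617 and 0.678 CPM, and in Ko LCWE 0.541, 0.844, 0.824, 1.69 and 0.716 CPM. Replicate 1 of Ko PBS and replicate 4 of Ko LCWE were the high libraries, and the 2 groups overlapped. LCWE against PBS in the knockout was -0.23 ± 0.51, and 0.51 without replicate 1 of Ko PBS. Without that library the difference from Wt PBS also turned, from 0.63 ± 0.52 to -0.11.

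Gp6 (chr7:4363965-4397744, minus strand), the collagen receptor gene, had 15 counts in all 19 libraries together. It was at 0 in 12 of them, including each of the 5 Wt PBS libraries, and the highest library held 4. The Wt LCWE libraries held 0 to 3 counts and 8 in sum, with no library above the floor of 3 counts. Their pooled level was 2.21 times the floor of 3 counts for the Wt PBS group, a ratio that leaves out the counting error on those 8. Ko PBS held 1 count and Ko LCWE 6, of which 4 were in replicate 4. With no filter on low counts, edgeR gave LCWE against PBS in wild type an adjusted p of 0.846. Over the 7 contrasts of that fit its adjusted p was 0.157 or more.

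Itga2b (chr11:102453297-102470122, minus strand), the alphaIIb integrin gene, had 20 to 150 counts per library, the second highest numbers of the 8 genes. In Wt PBS the libraries had 2.09, 4.98, 1.98, 1.60 and 2.15 CPM. Replicate 2 stood apart from the other 4, which lay close together. In Wt LCWE the lowest library had 1.35 CPM, the median was 4.09 and the highest had 7.23. Only 2 of 6 lay above all Wt PBS libraries, and the log2 fold change was 0.69 ± 0.42 (edgeR adjusted p = 0.814).

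The highest Itga2b value of the study was in the knockout without LCWE, where the libraries had 10.5, 3.43 and 4.75 CPM. Those of Ko LCWE had 2.47, 2.86, 2.25, 6.91 and 4.68 CPM, 3 of them below all Ko PBS libraries. Against Wt PBS, Ko PBS lay 1.27 ± 0.48 higher on the log2 scale (edgeR adjusted p = 0.158), with 1 of 3 libraries above all Wt PBS ones. LCWE in the knockout gave -0.69 ± 0.48 (edgeR adjusted p = 0.391). Without replicate 1 of Ko PBS, the library at 10.5 CPM, these differences were 0.66 and -0.085.

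Treml1 (chr17:48359916-48367176, plus strand) encodes a receptor-like protein of the alpha granule membrane that appears on activated platelets. It had 84 counts in all, with 5 libraries at 0 and 15 under 10 counts. It passed the filter on low counts through a few libraries: without Wt LCWE replicate 3 or without Ko LCWE replicate 4 it did not pass. In Wt PBS the libraries had 0.0835, 0.249, 0, 0 and 0.0742 CPM, at or below the floor of 3 counts in 4 of 5. In Wt LCWE they ran from 0 to 1.11 CPM with a median of 0.312, and 5 of 6 lay above every Wt PBS library. The log2 fold change was 2.06 ± 1.05 (edgeR adjusted p = 0.772).

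Treml1 was higher in each Ko PBS library, at 0.700, 1.03 and 0.301 CPM, than in any Wt PBS library. The difference was 2.88 ± 1.12 on the log2 scale (edgeR adjusted p = 0.165). In Ko LCWE the libraries had 0.0773, 0, 0.150, 1.02 and 0 CPM. Replicate 4 alone was within the range of Ko PBS, and the other 4 were below it. LCWE in the knockout gave -1.41 ± 0.98 (edgeR adjusted p = 0.397), opposite in sign to wild type.

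Tubb1 (chr2:174450695-174457882, plus strand) encodes beta-1 tubulin, the tubulin of the megakaryocyte line. Its libraries in Wt PBS had 0.167, 0.498, 0.152, 0 and 0.148 CPM, or 0 to 8 counts. In Wt LCWE they ran from 0 to 2.04 CPM with a median of 1.36. Replicate 6 was at 0 there, replicate 2 lay within the Wt PBS range, and the other 4 lay above it. The log2 fold change was 2.52 ± 0.84 (edgeR adjusted p = 0.772).

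All 3 Ko PBS libraries exceeded Wt PBS for Tubb1, at 1.19, 0.686 and 2.18 CPM, with a log2 difference of 2.72 ± 0.93 (edgeR adjusted p = 0.128). In Ko LCWE the libraries had 0.232, 0.649, 0.524, 2.64 and 1.11 CPM, and the 2 knockout groups overlapped (-0.37 ± 0.83, edgeR adjusted p = 0.823). Leaving out replicate 2 of Ko PBS moved 3 genes past the threshold between knockout and wild type under PBS: Tubb1 higher (3.03, edgeR adjusted p = 0.0443), Itga2b higher (1.56, 0.0432) and Pf4 lower (-1.48, 0.0362). In that fit 17.9% of all tested genes were called, so the share called grew for the whole table.

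Ppbp (chr5:90768518-90770063, plus strand) encodes pro-platelet basic protein, the precursor of CXCL7, a chemokine that attracts neutrophils. Its counts were 5 to 70 per library. In Wt PBS the libraries had 0.751, 1.12, 0.380, 0.601 and 1.11 CPM. In Wt LCWE the lowest had 0.608 CPM, the median was 2.34 and the highest had 4.17. All but replicate 6 lay above every Wt PBS library, with a log2 fold change of 1.58 ± 0.63 (edgeR adjusted p = 0.772).

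Knockout hearts showed another order for Ppbp. Ko PBS libraries had 1.05, 1.65 and 1.21 CPM, while those of Ko LCWE had 0.386, 0.325, 0.450, 4.74 and 0.781 CPM. Replicate 4 was the highest library of the study and the other 4 lay below all Ko PBS libraries. The fold change on the log2 scale was 0.05 ± 0.73 (edgeR adjusted p = 0.979) with replicate 4 and -1.40 (adjusted p = 0.135) without it, so that leaving out 1 library turned its sign.

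Pf4 (chr5:90772435-90773383, plus strand) lies 2371 bases past the end of Ppbp and encodes platelet factor 4, or CXCL4, a chemokine that binds heparin. Its transcript is known from megakaryocytes and also from macrophages that live in tissues. Per kilobase of exon it was the most abundant of the 8, at a mean of 20.6 CPM per kilobase over the 19 libraries. Ppbp followed at 1.41, and Itga2b (0.731), Gp9 (0.729), Tubb1 (0.648) and Gp1bb (0.462) lay below it on the same scale. Treml1 (0.227) and Gp6 (0.00938) were the lowest. With 43 to 435 counts in each library, Pf4 is also the gene whose values counting error limits least.

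In Wt PBS the Pf4 libraries had 15.1, 10.6, 10.8, 11.01 and 9.95 CPM, a tight group with replicate 1 above the rest. In Wt LCWE the lowest had 9.43 CPM, the median was 17.2 and the highest had 37.0. Replicates 1, 2 and 3 lay above all Wt PBS libraries, replicate 4 lay below them, and the other 2 fell within their range. The log2 fold change was 0.77 ± 0.34 (edgeR adjusted p = 0.772). Ko PBS libraries had 3.01, 11.7 and 5.20 CPM, of which 2 lay below all Wt PBS libraries. Ko LCWE libraries had 16.2, 15.2, 17.1, 26.6 and 12.04 CPM, each above the highest Ko PBS library.

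LCWE against PBS in the knockout gave Pf4 a log2 fold change of 1.39 ± 0.44 (edgeR adjusted p = 0.0778). DESeq2 called it at an adjusted p of 0.0141, with 3.47% of all genes called higher by that tool. Without replicate 2 of Ko PBS, the highest of that group, it passed in edgeR as well (2.09, adjusted p = 0.00663, with 9.61% of all genes called higher). It also passed without replicate 3 of Wt LCWE (1.38, adjusted p = 0.0469, 1.43% of all genes). That library is in neither group of this contrast and enters it through the shared spread, filter and scaling.

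Averaged over the genotypes, Pf4 rose 1.08 ± 0.28 on the log2 scale (edgeR adjusted p = 0.0456). That call stood close to the threshold: it was lost in 14 of the 19 fits that left out 1 library (adjusted p up to 0.160) and held in 5, the lowest being 0.00356 without replicate 2 of Ko PBS. The direction was higher in each of the 19, from 0.90 to 1.42.

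**Figure D2:**
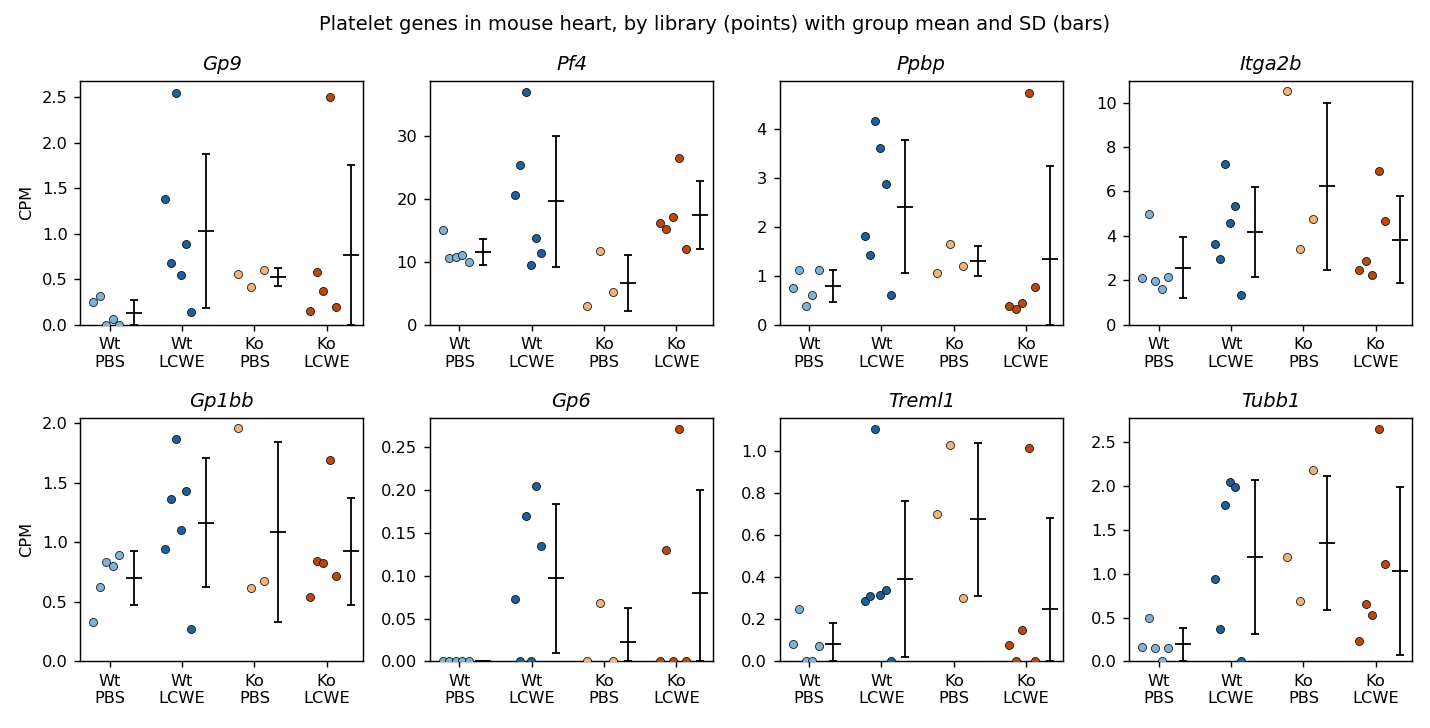
CPM (y axis, a separate linear scale from 0 for each gene) of the 8 platelet genes in each library (points) of the 4 groups, with group mean (dash) and SD (bars, cut at 0); Ko stands for the Mcm8 knockout. Pf4 runs from 3.01 to 37.0 CPM and every Ko LCWE point lies above every Ko PBS point, while Gp6 never exceeds 0.271 CPM.

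The number in each sample's name falls under 100, from 100 to under 200, or at 200 and above, and what it stands for is not stated. Within the middle range, 4 Wt PBS and 3 Wt LCWE libraries could be compared, in a fit of the 11 libraries of that range. Only 1 Ko PBS library fell in it, and the filter on low counts follows the smallest group. A gene with enough counts in 1 library, such as an LCWE library, was therefore tested, and 14747 genes were, rather than 14301. The 3 LCWE libraries were Wt LCWE replicates 1, 2 and 3, the only ones of their group with Pf4 above all Wt PBS libraries. Replicates 4, 5 and 6, which fell outside the range, had 9.43, 13.7 and 11.4 CPM of Pf4. For Gp9 and Ppbp, replicates 4 and 5 also lay above all Wt PBS libraries, and replicate 6 did not. In the fit of that range, Pf4 (1.19 ± 0.18, edgeR adjusted p = 0.00993), Gp9 (3.15 ± 0.74, adjusted p = 0.0279) and Ppbp (1.72 ± 0.45, adjusted p = 0.0384) rose with LCWE. These were 3 of 7 tested, against 5.21% of all genes called higher. Pf4 averaged 12.004 ± 2.19 CPM (SD, n = 4) after PBS and 27.3 ± 7.95 CPM (SD, n = 3) after LCWE in that range.

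Calls within the range rested on few libraries. The number called over all tested genes also changed widely with the library left out, so a pass or a miss is not particular to these genes. That number was lowest without Wt LCWE replicate 2, where Pf4 missed. It was highest without Wt LCWE replicate 1, the fit of Ppbp's only pass, where Gp9 passed too. Of the 7 fits that each left out 1 of its wild-type libraries, Pf4 missed the threshold in 1, without Wt LCWE replicate 2 (adjusted p = 0.0529). Gp9 passed in 2 and Ppbp in 1 of the 7 fits, and without Wt LCWE replicate 3 their edgeR adjusted p was 0.115 and 0.205. Over all 19 libraries with the range as a covariate, Pf4 averaged over genotypes gave 0.95 (edgeR adjusted p = 0.0988). Whether the sample number marks a batch was not tested.

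High and low values of several genes fell in the same libraries. Wt LCWE replicates 1, 3 and 5 and Ko LCWE replicate 4 were above the median of the 19 libraries for 8 of 8 genes. Of these, Wt LCWE replicate 3 and Ko LCWE replicate 4 were each the highest library for 3 genes. At the other end, Wt LCWE replicate 6 was below the median for 7 of 8, although its group's other libraries were mostly above it. Without Pf4, the other 7 genes summed to 18.9 CPM in Wt LCWE replicate 3, 19.8 CPM in Ko LCWE replicate 4 and 2.50 CPM in Wt LCWE replicate 6. Replicate 1 of Ko PBS, at 15.96 CPM, was the third highest and held the highest Itga2b and Gp1bb.

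The libraries with the most platelet RNA also held the most RNA of some leukocytes, though not in every case. Of 12 neutrophil markers, 9 were tested, and S100a8, S100a9 and Retnlg rose with LCWE averaged over genotypes, against 1.35% of all genes called higher. The 12 summed to 66.3 CPM in Wt LCWE replicate 3 and 150.3 CPM in Ko LCWE replicate 4, the 2 highest sums of the 19. Monocyte and macrophage markers summed to 950 and 1508 CPM there, also the 2 highest. In Ko PBS replicate 1, which was high for Itga2b, they summed to 9.87 and 220 CPM, among the low or middle values. Erythroid markers were highest in Wt LCWE replicate 3, at 384 CPM, but second lowest in Ko LCWE replicate 4, at 61.8 CPM. The part of these cells in the platelet gene values was not tested.

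**Figure D3:**
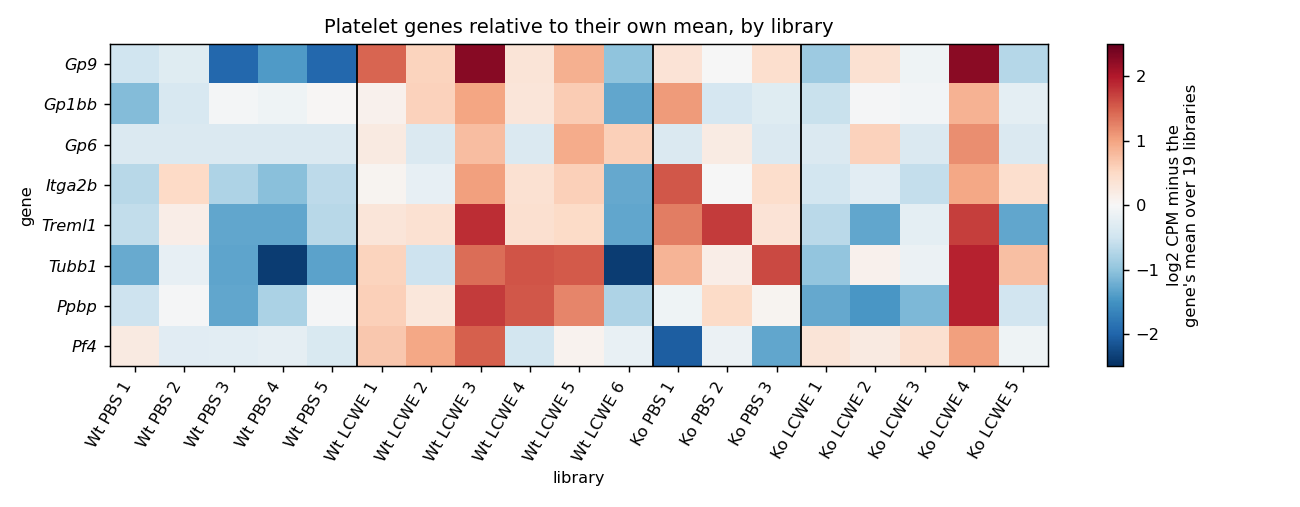
Each platelet gene (rows) in each of the 19 libraries (columns, lines between groups), coloured by its log2 CPM minus its own mean over all libraries, with a prior count of 2. Wt LCWE replicate 3 and Ko LCWE replicate 4 are above the mean for all 8 genes, and Pf4 is lowest in Ko PBS replicate 1, the library with the highest Itga2b.

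Pf4 had lower correlations with the other platelet genes than most of these had with each other. Among the 6 other tested genes, Spearman's rho of log2 CPM over the 19 libraries ran from 0.521 to 0.864 in 15 pairs, with a median of 0.70. Pf4 had a rho of 0.054 to 0.486 with these 6, with a median of 0.182 and the highest value with Gp9. After the group means were subtracted the ranges were 0.338 to 0.856 and -0.114 to 0.465, so that they overlapped (Pf4 had 0.465 with Gp9 and 0.429 with Treml1). These values are descriptions: all points share their library's depth and composition, and the groups contribute to them.

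With 15 monocyte and macrophage markers, Pf4 had rho values from 0.433 (Ccr2) to 0.940 (Tyrobp), with a median of 0.825. The sum of the other 7 platelet genes had 0.0596 to 0.3 with the same markers. Group means were not subtracted for these rho values, so differences between the groups contribute to them. By group, the summed markers ran from 366 to 457 CPM in Wt PBS, 404 to 950 in Wt LCWE, 197 to 510 in Ko PBS and 498 to 1508 in Ko LCWE. All 15 lay above 0 for LCWE against PBS in both genotypes. Averaged over genotypes 9 of 15 rose, against the 1.35% of all genes called higher: Mrc1, a scavenger receptor gene (0.95 ± 0.16, edgeR adjusted p = 0.0122), Itgam, Tyrobp, Csf1r, Adgre1, Lyz2 and the complement subunit genes C1qa, C1qb and C1qc (adjusted p up to 0.0438). In wild type alone 0 of 15 were called (edgeR adjusted p from 0.772 to 0.90), as were 0% of all genes. In the knockout 3 of 15 were called, Mrc1, Itgam and Tyrobp, against 0.818% of all genes called higher. The part of macrophages in the Pf4 values was not tested.

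**Figure D4:**
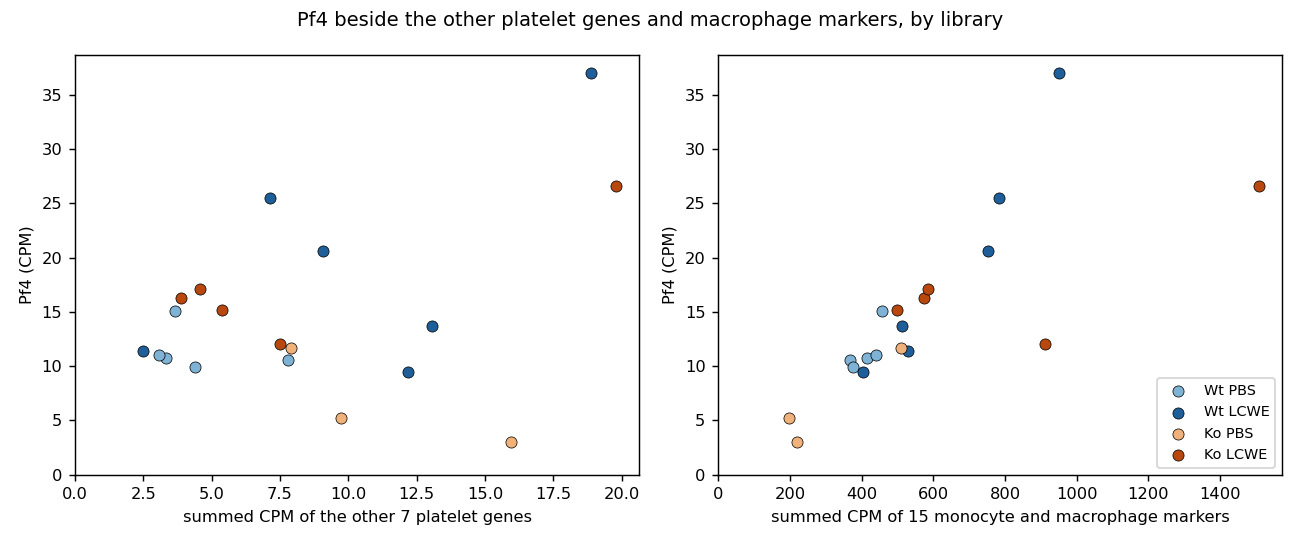
Pf4 in CPM (y axis) in each of the 19 libraries against the summed CPM of the other 7 platelet genes (left, x axis) and of 15 monocyte and macrophage markers (right, x axis), coloured by group; Ko stands for the Mcm8 knockout. The Ko PBS library with 15.96 CPM of the other platelet genes has the lowest Pf4, 3.01 CPM, and a macrophage sum of 220 CPM.

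Of all other tested genes, those most like the sum of the 8 in log2 CPM over the 19 libraries were Hcfc1r1 (rho 0.865), Cdc37 (0.854), S100a8 (0.839), Pgls (0.825), Tspo (0.809), Ccm2 (0.805), Medag (0.802), Ltf (0.80), Nfe2 (0.798) and Lage3 (0.796). Among them Nfe2 encodes a transcription factor of platelet formation, while S100a8 and Ltf encode neutrophil granule or cytosol proteins. After the group means were subtracted, the 10 were Fcgrt (0.875), Pdcd6, Sdf2, Atp6v0d1, Cst3, Gpx1, Polr2l, Mpp1, Gstm5 and Acyp1 (0.807). Pf4 supplies most of that sum.

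The lists changed with Pf4 set apart, a split chosen after its values were seen. The sum of the 7 others was most like Clec1b (rho 0.891), which encodes the platelet receptor CLEC-2. Plp2 (0.704), Grina (0.698) and Uchl1 (0.696) followed. P2rx1, a platelet ATP receptor gene (0.693), came next, ahead of Slc2a3 (0.688), Napa (0.681) and Psmc3 (0.677). Plek, a protein kinase C substrate gene of platelets and leukocytes (0.675), and Pgm1 (0.670) completed the 10. After the group means were subtracted, Ermard (0.828) and Clec1b (0.814) led, and P2rx1 and Plek were not among the 10. Pf4 alone was most like Fcrls (0.947), Tyrobp (0.940) and C1qc (0.933), which are macrophage or microglia genes. None of these 3 was among its 10 after the group means were subtracted, when Chmp5 (0.965), Plk1 (0.916) and Epor (0.895) led. Clec1b had a mean of 0.638 CPM and log2 differences of 1.60 ± 0.73 for LCWE in wild type and -1.27 ± 0.79 in the knockout, neither called by edgeR (adjusted p = 0.772 and 0.344).

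The wider set of platelet and megakaryocyte genes held 57 more genes, 48 of them tested, and many are also made by endothelium, leukocytes or heart cells. For LCWE in wild type, 0 of 48 were called. In the knockout, 4 of 48 were called, against 2.9% of all genes. F13a1, the transglutaminase subunit of factor XIII that macrophages also make, rose (1.31 ± 0.33, edgeR adjusted p = 0.0425). Nbeal2, needed for alpha granules (-0.83 ± 0.20, adjusted p = 0.0365), Rasgrp2, the activator of Rap1 upstream of integrins (-1.10 ± 0.18, adjusted p = 0.0106), and Ptgs1, the cyclooxygenase of thromboxane synthesis (-1.02 ± 0.25, adjusted p = 0.0373), fell.

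Averaged over genotypes, 6 of 48 were called with LCWE, against 2.95% of all genes. F13a1 rose by 0.90 ± 0.21, Fcer1g, the signalling chain paired with GPVI and with Fc receptors, by 1.10 ± 0.26, and Bin2 by 1.10 ± 0.28 on the log2 scale. Fermt3, the integrin activator of blood cells, rose by 0.72 ± 0.19. Nbeal2 fell by 0.51 ± 0.13 and Rasgrp2 by 0.67 ± 0.12, with edgeR adjusted p from 0.0134 to 0.0455 over the 6. Leaving out 1 library at a time gave 0 to 17 calls here and 0 to 18 for the knockout alone. Under PBS 1 of 48 was called between genotypes: Ptgs1 was higher in the knockout (1.30 ± 0.25, edgeR adjusted p = 0.0316), against 0.601% of all genes. That count was 0 to 11 with 1 library left out, and 0 with limma-voom or with only the groups compared. Between genotypes under LCWE or averaged, and for the interaction, 0 of 48 were called.

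Receptors of the wider set, 10 of 13 tested, had a median log2 fold change of 0.32 for LCWE in wild type with 9 above 0, and 0.05 in the knockout with 5 above 0. The most abundant were Esam (122.8 CPM), an adhesion gene shared with endothelium, P2ry1 (22.1 CPM), Gp1ba (9.01 CPM), the von Willebrand factor binding chain, and Tbxa2r (6.12 CPM). Gp1ba differed by 0.02 ± 0.20 for LCWE in wild type. Megakaryocyte factors, 8 of 12 tested, had medians of -0.06 and -0.02 in the same comparisons and were led by Zfpm1 (36.2 CPM), Fli1 (27.2 CPM), Meis1 (23.9 CPM) and Mrtfa (15.97 CPM). Gp5, Gata1 and Gfi1b were among the genes too low to be tested.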

How the data were processed

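Per the labels' protocols, a kit for whole transcriptome amplification was used for the heart RNA, with preamplification before the libraries were built. The authors deposited whole-number counts per gene symbol, not normalized, in 1 table of 19 samples with 0 columns of other samples. Per the submitters' processing notes, STAR 2.7.8a, limma 3.36.160 and the build GRCm38 were used, for steps that are not stated. Which program counted reads, on which annotation and with which strand setting is not given in the sources used. Groups follow genotype and treatment in the labels, and replicate numbers are accession order, which pairs no samples.

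Genes were kept by filterByExpr (minimum count 10, minimum total 15) of edgeR 4.0.16 in R 4.3.3, scaled by TMM and fitted by the robust quasi-likelihood model, 4 groups in 1 model without covariates, with 7 contrasts. Adjusted p-values are Benjamini-Hochberg over the 14301 genes tested, with 0.05 as the threshold, and errors beside log2 values are standard errors of the fit. CPM use TMM-scaled library sizes, with a prior count of 2 on the log2 scale. Alternatives were other scaling and filters, DESeq2 1.42.0, limma-voom (limma 3.58.1), a non-robust fit, only the groups compared, sample-number ranges, and each library left out. The fit was also run on simulated counts, with changes set only in genes of at least 1 CPM. Gp9, Gp1bb, Gp6, Treml1 and Tubb1 had lower means, so that run does not cover changes in them. No 2 libraries looked like duplicates: the lowest chi-square per gene was 7.68 over 11198 genes.

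The 8 genes and all gene lists were chosen with earlier results of these data known. Named are the 8 genes, every called gene of the other lists, or for the receptors and megakaryocyte factors, with none called, the 4 of highest mean CPM, and the 10 genes most like the members' sum. Called genes of lists not described in the report were Cd8a and Cd8b1 of T cells and Actc1 of heart muscle, which rose with LCWE averaged over genotypes. Actc1 was also called higher with LCWE in the knockout. Gp5, Gata1, Gfi1b, Septin5, Alas2 and the genes most like Pf4 or the other 7 were named after their values were seen. Marker lists of T and NK cells, B cells and endothelium were also measured: their sums per library ran from 1.26 to 14.0, 1.19 to 8.67 and 1240 to 1984 CPM. Coordinates and exon lengths come from GENCODE M21 (GRCm38), which matched all 8 genes, and promoter sequences from RefSeq.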

Additional observations from a re-analysis of the deposited data

Results flagged for a closer look

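In 7 of 23 sets of a gene and a group of 4 to 10 libraries, 1 library stood far from the rest by the gap to its nearest neighbour over the range of the group. For normally distributed values chance flags about 1 in 20 such groups; the rate for counts as low as these was not measured. The sets are not independent because 4 of the 7 come from 1 library. That library is Ko LCWE replicate 4, with 2.51 CPM of Gp9 (the next had 0.584), 4.74 CPM of Ppbp (the next had 0.781), 1.69 CPM of Gp1bb (the next had 0.844) and 1.02 CPM of Treml1 (the next had 0.150). It also held the highest summed neutrophil and macrophage markers of the 19 libraries, at 150.3 and 1508 CPM, and their part in these values was not tested.

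Wt LCWE replicate 3 stood apart for Treml1, at 1.11 CPM against 0.342 in the next library. In Wt PBS, replicate 1 stood apart for Pf4 at 15.1 CPM (the next had 11.01), and replicate 2 for Itga2b at 4.98 CPM (the next had 2.15).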

How the results depend on the processing

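The 7 genes kept their direction and their side of the threshold in 405 values under other settings, with 13 exceptions, and in 864 values with 1 library left out, with 53 exceptions. Treml1 has no value in 2 of the 19 fits that left out a library, without Wt LCWE replicate 3 and without Ko LCWE replicate 4, since it did not pass the filter there. Directions turned for Gp9 with LCWE in the knockout under limma-voom (-0.15), Ppbp there under limma-voom (-0.74) and with sample-number range in the model (-0.043), Treml1 with LCWE averaged over genotypes under limma-voom (-0.40), Itga2b in that average with library totals alone (0.0083), and Tubb1 in the knockout under LCWE with limma-voom (0.34). With 1 library left out, directions turned within these ranges: for LCWE in the knockout, Gp9 -0.65 to 0.80, Ppbp -1.40 to 0.30, Gp1bb -0.56 to 0.51 and Tubb1 -1.08 to 0.15. For LCWE averaged, Itga2b ran from -0.16 to 0.30, and for knockout under PBS, Gp1bb from -0.11 to 0.91. For knockout under LCWE, Gp9 ran from -1.60 to 0.083, Pf4 from -0.37 to 0.11, Itga2b from -0.43 to 0.11 and Tubb1 from -0.88 to 0.069. For knockout averaged, Ppbp ran from -0.79 to 0.067 and Gp1bb from -0.21 to 0.30. The number of the 7 called for LCWE in wild type was 3 within sample numbers 100 to under 200. It was 1 for LCWE in the knockout with DESeq2, and 0 for LCWE averaged over genotypes with no filter, limma-voom or the covariate. Leaving out 1 library gave 0 to 1, 0 to 1, 0 to 3 and 0 to 1 for LCWE in the knockout, LCWE averaged, knockout under PBS and knockout averaged, and 0 in the other 3 contrasts. Of the 48 wider genes, LCWE in wild type gave 9 within the range. LCWE in the knockout gave 11 with DESeq2, 2 with limma-voom, 0 with only the groups compared, 2 with the covariate and 0 to 18 with 1 library left out. LCWE averaged gave 1 with no filter, 12 with DESeq2, 2 with limma-voom, 1 with the covariate and 0 to 17 with 1 library left out. Knockout under PBS gave 4 with DESeq2, 0 with limma-voom, 0 with only the groups compared, 3 with the covariate and 0 to 11 with 1 library left out. Knockout averaged gave 1 with DESeq2, 2 with the covariate and 0 to 5 with 1 library left out, and the interaction 0 to 3. The share called over all genes moved too. With DESeq2 it was 8.99% for LCWE in the knockout, 9.64% for LCWE averaged, 5.19% for knockout under PBS and 5.32% for knockout averaged. With limma-voom the first 3 were 0.79%, 1.01% and 0.00699%. Without Ko PBS replicate 2, edgeR called 17.9% for knockout under PBS. For LCWE in wild type the share also rose from 0% within the range. These changes in the counts are thus not particular to platelet genes, and their cause was not tested. Depth limits most the genes with few reads: Gp6 had 15 counts over 19 libraries, and Gp9, Ppbp, Gp1bb, Treml1 and Tubb1 had 84 to 403.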
